A study of Mus musculus with 2 samples.

Results

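Cubn, Amn, Lrp2, Dab2 and Fcgrt, which encode receptors and an adaptor for the uptake of protein from outside the cell, were followed in total RNA of mouse intestine at embryonic day 15.5 (E15.5). The genes were chosen by name for their role in this uptake route, with earlier results of these data known. They are 5 of 43346 gene entries in the deposited tables. The single group holds 2 libraries of whole intestine from strain B6NCrl, with no treatment, transgene or mutation in the labels. Embryos of both sexes were pooled, 78 in replicate 1 and 62 in replicate 2, so each value averages over many animals. The libraries were labelled as biological replicates and hold 33665128 and 39953610 estimated counts on mouse genes. With 1 group there is no contrast between conditions and no test, and every spread below is the SD of the 2 libraries. Levels are in TPM, a unit of transcript abundance corrected for transcript length and library size, and paired values are replicate 1 and then replicate 2.

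Cubilin (Cubn) is a very large receptor that lies on the outer face of the apical membrane and binds many proteins, among them the complex of intrinsic factor with vitamin B12. It has no membrane anchor of its own and depends on amnionless (Amn), which spans the membrane. Megalin (Lrp2) is a giant receptor of the lipoprotein receptor family that shares ligands with cubilin. Dab2 is an adaptor that links the tails of such receptors to clathrin. Fcgrt encodes the heavy chain of FcRn, the receptor that carries maternal antibody across the gut of suckling rodents. In rodents, enterocytes of the fetal and suckling gut take up intact protein in this way. The same genes are also known from kidney proximal tubule and yolk sac, and Dab2 and Fcgrt from macrophages and other cells, so whole-tissue RNA does not tell which cells they came from.

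A gene was called detected where neither library was below 1 TPM. All 5 genes were detected, against 62.7% of all protein-coding genes. The 5 genes were chosen with earlier results of these data known, so this count carries no test. Their levels spanned a wide range, in the order Fcgrt, Amn, Dab2, Cubn and Lrp2. Fcgrt was at 134 and 123 TPM and ranked 1226 among 21474 protein-coding genes. Amn followed at 114.7 and 102 TPM (rank 1484). Dab2 stood at 36.1 and 42.7 TPM (rank 3930), Cubn at 7.41 and 6.12 TPM (rank 9995) and Lrp2 at 1.93 and 1.75 TPM (rank 12793). The libraries of neighbouring genes in this order did not overlap, and each difference of means was larger than the SD of either gene. The smallest gap was that of Fcgrt over Amn, with means of 128 ± 8.08 and 108 ± 8.99 TPM (SD, n = 2), a difference of 20.0 TPM.

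**Figure D1:**
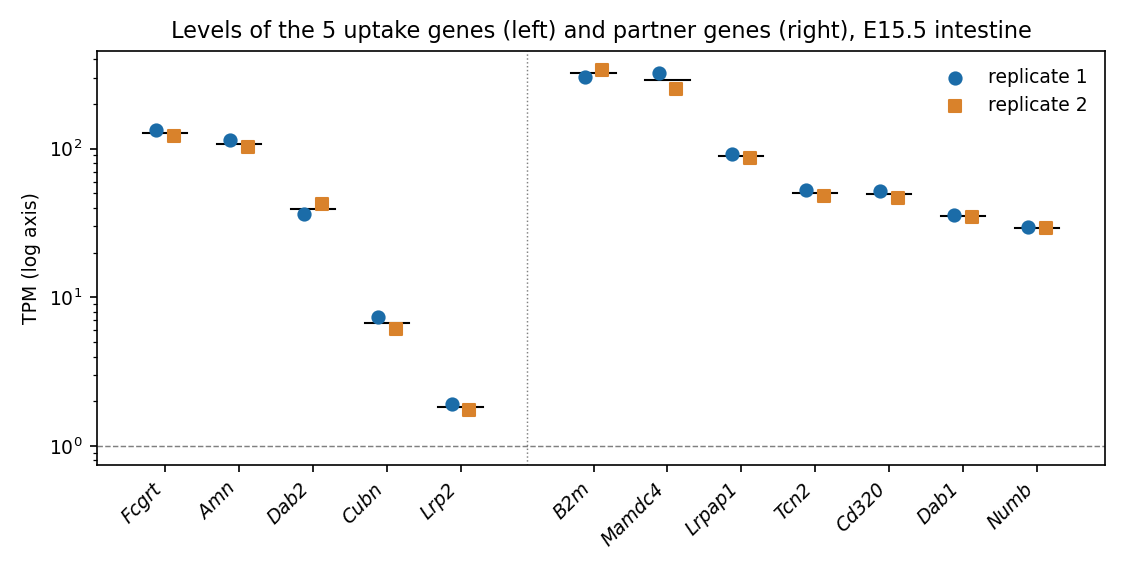
TPM on a log axis for the 5 uptake genes (left of the dotted line) and 7 partner genes (right), with a point for each library, a bar at the mean and a dashed line at a TPM of 1. Fcgrt and Amn lie above 100 TPM in both libraries, while Lrp2 lies just above 1.

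The receptors are described first, with positions on mm10 (GRCm38) from GENCODE M21. Cubn (ENSMUSG00000026726.10, chromosome 2, 13276338 to 13491813, minus strand) and Amn (ENSMUSG00000021278.6, chromosome 12, 111271095 to 111276426, plus strand) encode the partners of one complex, but their messages were far from equal. Amn exceeded Cubn 15.5-fold in replicate 1 and 16.7-fold in replicate 2 on the TPM scale (16.1 ± 0.837, SD, n = 2). In estimated counts, which are not corrected for length, the gap was smaller. Cubn had 1974 and 1877 counts, and Amn had 4358 and 4513. Amn has 1 transcript in the tables, of 1685 bases. Cubn output fell almost entirely on its full-length transcript Cubn-201, of 11262 bases and 67 exons, which held 99.2% and 98.2% of the gene's TPM. The remaining Cubn transcripts, Cubn-202 and Cubn-203, are annotated as retained introns and held at most 1.37% each.

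The 5 genes differ in length, and level fell with length among genes in general. Over detected protein-coding genes the median was 35.1 TPM where the longest coding transcript was under 2 kb (3802 genes) and 7.51 TPM where it was 10 kb or more (260 genes). Among the 260 genes of 10 kb or more, Cubn exceeded 44.6% and Lrp2, of 15460 bases, exceeded 8.85%. Within their own length classes Amn exceeded 76.4% of genes, Fcgrt 79.8% and Dab2 74.3%. Whether the gap between Amn and Cubn depends on length was not tested.

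**Figure D2:**
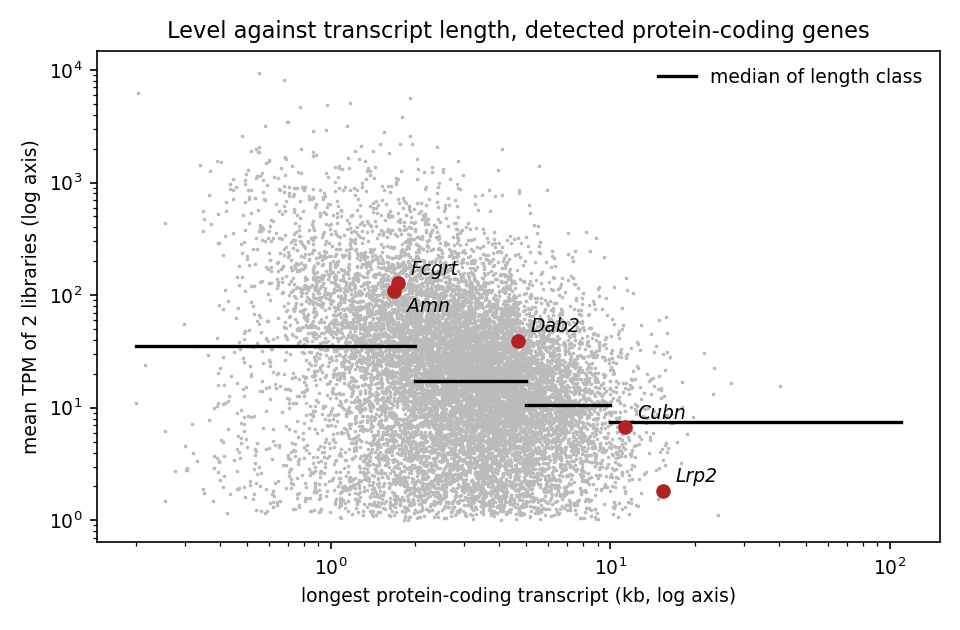
Mean TPM of the 2 libraries against the length of the longest protein-coding transcript, both on log axes, for each detected protein-coding gene (grey) with the median of 4 length classes (black lines) and the 5 uptake genes (red). Cubn lies close to the median of its class, Lrp2 below it, and Fcgrt, Amn and Dab2 above theirs.

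The sequences just upstream of Cubn and Amn are shown because these genes encode partners of a complex at unlike levels. They come from RefSeq on GRCm38.p6, on the strand of the gene, end before the first annotated exon, and carry in capitals any match to 5 motifs. Cubn is chr2:13491877-13492126 on the minus strand and Amn is chr12:111270846-111271094 on the plus strand.

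Cubn: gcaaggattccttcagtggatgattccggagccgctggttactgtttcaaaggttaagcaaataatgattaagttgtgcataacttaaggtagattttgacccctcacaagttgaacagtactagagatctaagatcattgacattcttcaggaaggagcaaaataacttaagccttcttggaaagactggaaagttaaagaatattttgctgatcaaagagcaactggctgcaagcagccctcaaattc

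Amn: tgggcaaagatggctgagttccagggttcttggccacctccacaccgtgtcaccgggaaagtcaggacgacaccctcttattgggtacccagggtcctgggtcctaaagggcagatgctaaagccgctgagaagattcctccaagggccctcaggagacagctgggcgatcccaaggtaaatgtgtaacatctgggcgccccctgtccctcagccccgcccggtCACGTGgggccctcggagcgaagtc

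The motifs were searched on both strands in the 250 bases before the RefSeq start of each gene and of 32851 starts in all. CACGTG, the E-box read by Tfeb and related factors, was present in 6.02% of all windows. GTTAAT, part of the site of Hnf1, was present in 6.43% of them. CAAAGTNCA, a site of Hnf4 factors, was present in 1.19%. AGATAA, read by Gata factors, was present in 9.99%. TTTATNG, read by Cdx factors, was present in 9.81%. Amn held the E-box 21 bases before its start, and Cubn held none of the 5 motifs. The Lrp2 window held the Hnf4 letters 146 bases before the start, and the Fcgrt window held none. No window of the 5 genes held more than 1 match, so none overlapped. The windows also differed in base composition, with 39.6% G plus C for Cubn and 61.2% for Amn, against a median of 52.4%. These matches describe letters and not binding.

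Lrp2 (ENSMUSG00000027070.10, chromosome 2, 69424340 to 69586065, minus strand) was the lowest of the 5, with 409 and 515 counts. Its gene-level TPM rests on more than the full-length message. Lrp2-201, the 15460-base transcript with 79 exons, held 87.9% and 88.1% of the counts but 50.7% and 60.5% of the TPM, at 0.98 and 1.06 TPM. Lrp2-204, a 392-base noncoding fragment of 3 exons inside the gene, held 3.23 and 1.35 counts but 23.9% and 9.45% of the TPM. Lrp2-203, a 4359-base coding transcript, held 21.6% and 27.6%. A transcript with under 5% of a gene's counts and at least 20% of its TPM was found for 2.72% of detected protein-coding genes in replicate 1 and 2.65% in replicate 2, and Lrp2 was one of them in replicate 1 only.

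This bears on which library has more Lrp2. The gene-level TPM was lower in replicate 2, where the deposited effective length of the gene was longer, at 10555 bases against 8861 in replicate 1. Full-length Lrp2-201 was higher in replicate 2, and so were Lrp2 counts scaled to the library total (CPM), at 12.1 and 12.9. The direction of the Lrp2 difference between libraries therefore changes with the measure. In the deposited tables the credibility bounds for Lrp2, of unstated level, ran from 1.502 to 2.82 TPM in replicate 1 and from 1.47 to 2.36 TPM in replicate 2, and these ranges overlap.

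**Figure D3:**
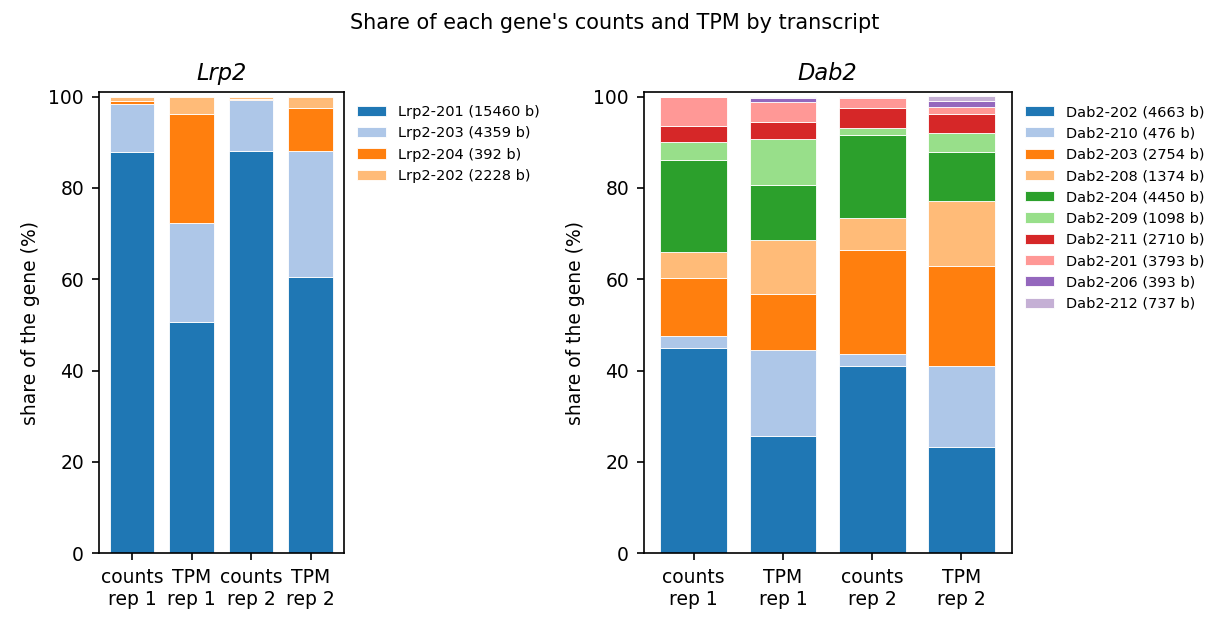
Stacked share in percent of the gene's estimated counts and of its TPM by transcript, for Lrp2 (left) and Dab2 (right) in each library, with transcript lengths in bases (b). The 392-base Lrp2-204 and the 476-base Dab2-210 take a far larger share of TPM than of counts.

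Dab2 (ENSMUSG00000022150.12, chromosome 15, 6299788 to 6440712, plus strand), the adaptor of the group, had 14 transcripts in the tables, 4 of them listed at 0 in both libraries. Dab2-202, of 4663 bases, led with 25.6% and 23.2% of TPM and 44.9% and 41.1% of counts. Dab2-203, of 2754 bases, held 12.3% and 22.1% of TPM, Dab2-208 11.7% and 14.0%, Dab2-204 12.1% and 10.8%, and Dab2-209 10.1% and 4.21%. Dab2-210, a 476-base retained-intron fragment, held 18.9% and 17.7% of TPM on 61.7 and 79.5 counts. The other 8 transcripts held under 5% each. Coding transcripts together held 81.1% and 82.3% of Dab2 TPM, while the median over detected protein-coding genes was 99.0% in each library. A lower coding share than that of Dab2 was found for 23.4% and 23.2% of these genes. By counts, coding transcripts held 97.3% and 97.4% of Dab2.

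Of the 14 Dab2 transcripts, 5 start in an upstream first exon and 5 in a downstream one, and the starts lie 86.8 kb apart. The upstream first exon is at 6299788 to 6299899 and the downstream one at 6386598 to 6386932 on chromosome 15. Upstream bases of both are shown because reads were assigned to transcripts from each, again from RefSeq on GRCm38.p6, plus strand, ending before the first annotated exon. They are chr15:6299539-6299787 and chr15:6386498-6386597.

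Dab2 upstream start: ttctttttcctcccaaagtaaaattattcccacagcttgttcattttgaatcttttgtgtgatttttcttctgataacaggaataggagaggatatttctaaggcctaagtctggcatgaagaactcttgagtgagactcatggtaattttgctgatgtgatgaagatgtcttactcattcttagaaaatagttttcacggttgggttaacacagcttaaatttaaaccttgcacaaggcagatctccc

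Dab2 downstream start: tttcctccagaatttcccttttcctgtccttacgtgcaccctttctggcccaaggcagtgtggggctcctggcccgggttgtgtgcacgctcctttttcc

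The full 250-base windows held 36.8% G plus C at the upstream start and 60.0% at the downstream start. None of the 5 motifs was present at the upstream start. The downstream window held the Hnf1 letters 60 bases before the RefSeq start, inside the longer first exon of Dab2-202 and so beyond the stretch printed here. Most Dab2 output came from the downstream start. Transcripts of the upstream start, with 5.24 and 2.44 TPM, held 18.2% and 7.13% of the TPM of both. By counts they held 227 of 2188 in replicate 1 (10.4%, 95% Wilson interval 9.17 to 11.7%) and 116 of 2984 in replicate 2 (3.89%, 3.25 to 4.64%). The intervals do not overlap, but they cover counting error only, not the uncertainty of assigning shared reads or copies made by amplification. All of the upstream reads were placed on Dab2-201 and Dab2-209, and the other 3 upstream transcripts were listed at 0. The deposited posterior mean for Dab2-201 was 177 counts with an SD of 64.6 in replicate 1 and 88.5 with an SD of 66.2 in replicate 2, and these ranges overlap.

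A coding exon of 654 bases (chromosome 15, 6429296 to 6429949), exon 10 of 15 in Dab2-202, separates the long forms of Dab2 from the short ones. Its length is a multiple of 3. The joins that distinguish the forms are shown, with 15 bases of the upstream exon in lower case and 15 of the downstream exon in capitals, plus strand, from GENCODE M21 transcripts.

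Into the exon (Dab2-202): ctaaatagtccaacaGAAAGCAAAGATATC
Out of the exon (Dab2-202): agaaggactgctaagTCTTCAGCAAACGAC
Past the exon (Dab2-203): ctaaatagtccaacaTCTTCAGCAAACGAC

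Among the 6 transcripts that reach the last exon, those with the 654-base exon (Dab2-202, Dab2-204 and Dab2-214) held 13.6 and 14.5 TPM and those without it (Dab2-201, Dab2-203 and Dab2-211) held 7.33 and 11.9 TPM. The share with the exon was 65.0% and 55.0% of TPM, or 60.0 ± 7.07% (SD, n = 2). By counts it was 74.4% (95% Wilson interval 72.5 to 76.3%) and 67.1% (65.3 to 68.8%). These intervals also cover counting error only, not the uncertainty of assigning shared reads. The deposited posterior SD was 121 and 135 counts for Dab2-202 and 119 and 123 counts for Dab2-204. The long form was thus the larger share in both libraries. The difference between libraries came mainly from Dab2-203, which was at 4.44 and 9.44 TPM. Its posterior mean was 233 counts with an SD of 84.5 in replicate 1 and 667 with an SD of 84.4 in replicate 2. Dab2-203 is also annotated with a shorter last exon than Dab2-202, so its reads are told apart by more than this exon.

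A second exon that differs among transcripts, exon 9 of Dab2-202, has 63 bases (chromosome 15, 6424635 to 6424697). It precedes the 654-base exon directly and its length is also a multiple of 3. Its sequence is shown because most Dab2 output carried it.

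Dab2 63-base exon: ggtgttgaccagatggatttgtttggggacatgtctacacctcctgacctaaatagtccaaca

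Transcripts with this exon held 80.3% and 81.2% of the TPM of the 8 transcripts that span its position, and 75.4% and 76.8% of their counts. This share differed little between the libraries, unlike those of the start site and the 654-base exon. Of 8 Dab2 transcripts at a TPM of at least 1 in either library, 3 were 2-fold or more apart between the libraries (Dab2-201, Dab2-203 and Dab2-209), beside 13.6% of 34664 such transcripts of all detected genes.

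**Figure D4:**
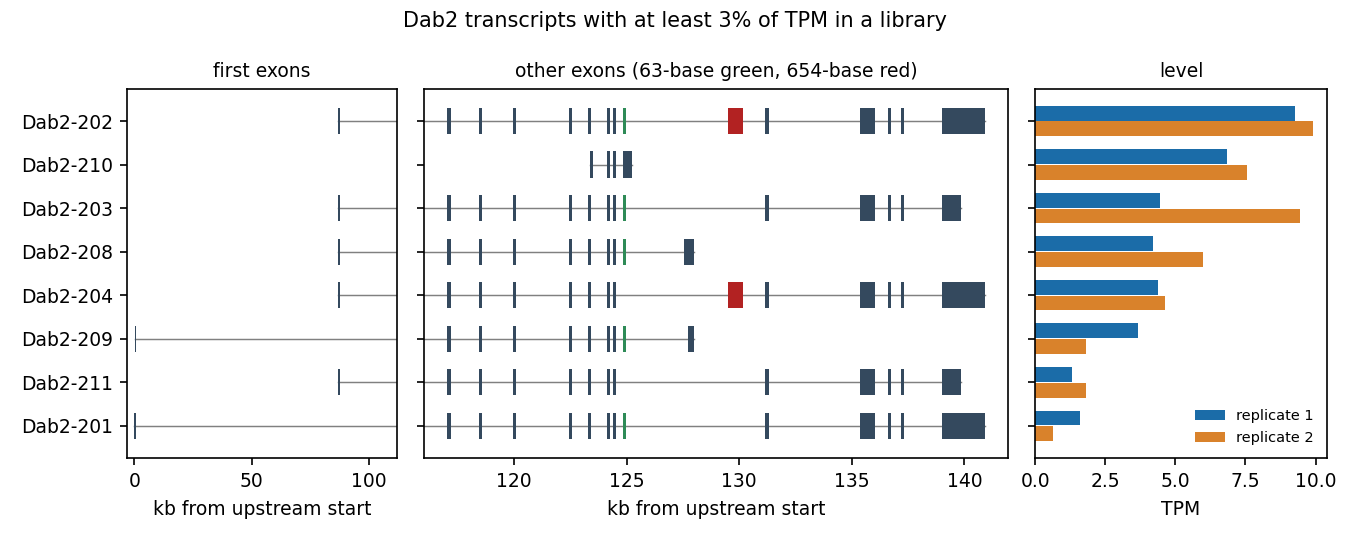
Exons of the 8 Dab2 transcripts with at least 3% of the gene's TPM in either library, as distance in kb from the upstream start, with narrow exons widened to be visible, the 63-base exon in green, the 654-base exon in red and bars for TPM in each library. Dab2-201 and Dab2-209 begin at the upstream start, and Dab2-203 is the transcript whose bars differ most.

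Fcgrt (ENSMUSG00000003420.7, chromosome 7, 45092990 to 45103851, minus strand), the heavy chain of the antibody receptor FcRn, had the highest level and the most counts of the 5, 5264 and 5608. It has 1 transcript in the tables, of 1738 bases. FcRn needs the light chain beta-2 microglobulin, encoded by B2m, which class I antigen-presenting molecules share. B2m was at 304 and 340 TPM, 2.27 and 2.78 times Fcgrt. Classical Fc receptors of leukocytes were much lower than Fcgrt. Fcgr3 stood at 11.7 and 12.3 TPM and Fcgr1, Fcgr2b and Fcgr4 were each below 2 TPM. Fcer1g, the signalling chain that several of them use, stood at 44.2 ± 1.48 TPM. The antibody transporter gene Pigr was at 2.08 and 0.80 TPM, and Trim21, an antibody receptor inside cells, at 0.14 and 0.36 TPM.

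Ligands and other receptors of the same route were read from gene lists. The background for each count of detected list genes is the 62.7% of all protein-coding genes that were detected. Of 8 matched genes for vitamin B12 carriers and cell entry, 7 were detected. The exception was Gif, which encodes intrinsic factor, the luminal carrier that cubilin binds, at 0.03 and 0.00 TPM. The carrier gene Tcn2 and its receptor gene Cd320, which serve B12 uptake from blood, stood at 50.6 ± 3.37 and 49.3 ± 4.09 TPM. Mmadhc, which acts on B12 inside cells, stood at 125 ± 0.615 TPM.

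In the lipoprotein receptor family of megalin and its helpers, 16 of 17 matched genes were detected and Lrp1b was at 0.37 and 0.35 TPM. Lrp2 was low beside its relative Lrp1, a broad scavenger receptor, which was at 63.8 and 55.9 TPM, 33.0 and 31.9 times Lrp2. Lrp1 was well above most of this list, though. The median of the 17 matched genes was 7.25 and 7.70 TPM, much nearer to Lrp2. Lrpap1, the chaperone that keeps megalin and its relatives free of ligand in the secretory pathway, was at 91.6 and 86.9 TPM, or 47.5 and 49.6 times Lrp2. The chaperone gene Mesd stood at 81.3 ± 10.2 TPM.

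Among 16 other uptake receptors, 14 were detected. Mamdc4, which encodes endotubin of the apical endosomes of fetal and suckling enterocytes, was at 325 and 252 TPM, above all 5 uptake genes in both libraries and 2.42 and 2.06 times Fcgrt. The folate receptor gene Folr1 followed at 113 ± 14.8 TPM and the transferrin receptor gene Tfrc at 79.5 ± 9.18 TPM. Stab2, a scavenger receptor of vessels, was at 0.95 and 0.91 TPM.

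Dab2 was set beside a list of cargo adaptors and other clathrin adaptors, not all of which bind receptor tails. Of its 22 genes 21 were detected, beside 62.7% of protein-coding genes, with Stap1 at 0.44 and 0.48 TPM. Dab1, a relative of Dab2 best known from neurons, was at 35.8 and 34.7 TPM, so Dab2 was 1.01 and 1.23 times Dab1. Numb, which also sorts Notch, was at 29.5 and 29.1 TPM. Snx17, which recycles receptors, led the list at 111 ± 2.63 TPM. It was followed by the AP-2 associated gene Necap2 at 58.2 and 55.8 TPM and the epsin gene Epn1 at 48.5 ± 1.56 TPM.

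Genes of the coat and of vesicle release were read in the same way, beside the 62.7% of all protein-coding genes detected. All 13 clathrin and AP-2 genes were detected, led by the AP-2 subunit gene Ap2m1 at 381 ± 0.757, the clathrin light chain gene Clta at 222 ± 8.39 and Ap2s1 at 211 ± 4.28 TPM. All 18 scission and motor genes were detected, led by Gipc1 at 135 ± 2.07, the cortactin gene Cttn at 119 ± 3.92 and the endophilin gene Sh3gl1 at 102 ± 0.799 TPM. Myo6, the motor that moves coated vesicles away from microvilli, stood at 56.8 ± 4.51 TPM, and Ocrl, a lipid phosphatase needed for megalin traffic in kidney, at 13.7 ± 0.601 TPM.

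All 28 genes of early and recycling endosomes were detected, beside 62.7% of protein-coding genes. They were led by Rab11a of the recycling endosome at 422 ± 3.94, the retromer gene Vps29 at 227 ± 7.62 and Rab14 at 191 ± 20.2 TPM. Of 37 late endosome and lysosome genes 34 were detected. The membrane genes Cd63 and Lamp1 led at 717 ± 6.53 and 333 ± 3.93 TPM, and the protease gene Ctsd stood at 258 ± 26.5 TPM. Lamp3, Atp6v0d2 and Mitf were below 1 TPM in both libraries. Clcn5, the endosomal chloride transporter whose loss impairs protein uptake in kidney, stood at 13.9 ± 0.509 TPM.

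All 11 regulators listed for the fetal and suckling enterocyte were detected, beside 62.7% of protein-coding genes. Cdx1, Hnf4a and Hnf4g led at 74.3 ± 4.57, 71.1 ± 0.170 and 61.3 ± 1.15 TPM. Prdm1, which holds back the adult programme before weaning, stood at 17.9 ± 0.622 TPM, and the leucine zipper factor gene Maf at 9.00 ± 0.898 TPM. These lists were chosen with earlier results of these data known, and their counts carry no test.

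The libraries were then compared gene by gene. None of the 5 uptake genes was 2-fold or more apart, beside 0.694% of 14986 detected genes (0.187% higher and 0.507% lower in replicate 2). Ratios are the log2 of replicate 2 over replicate 1 after adding 1 to each TPM, a scale that understates changes of low genes. Cubn, Amn, Fcgrt and Lrp2 were lower in replicate 2, at -0.24, -0.17, -0.13 and -0.091, and Dab2 was higher, at 0.24. Lower values in replicate 2 were found for 44.5% of detected genes and higher ones for 55.2%, with a median of 0.02 over all of them. Scaling by the ERCC spike-ins (synthetic RNAs added to each sample) moved that median to 0.27, and it turned Amn, Fcgrt and Lrp2 upward in replicate 2 and left Cubn at -0.00471. Relative to the median under spike-in scaling, Cubn was at -0.27, Lrp2 at -0.18, Amn at -0.17, Fcgrt at -0.13 and Dab2 at 0.23, the same side of the median for each gene as with TPM as deposited.

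Markers of cell types also differed between the libraries. All 12 enterocyte markers, led by Fabp1, Apoa1 and Fabp2, were lower in replicate 2, with a median of -0.20 and a summed level of 5831 and 4864 TPM, and under spike-in scaling 12 of 12 remained below the median of all genes although 7 turned upward. All 10 mesenchyme markers, led by Col3a1, Col1a1 and Col1a2, were higher in replicate 2 under each scaling, with a median of 0.17 and a summed level of 3584 and 4059 TPM. In TPM, Cubn, Amn and Fcgrt were lower in replicate 2, as were the enterocyte markers and most yolk sac, liver and exocrine pancreas markers. Dab2 was higher, as were the mesenchyme markers. Of all detected genes, 8.15%, 13.9% and 18.7% had a lower ratio than Cubn, Amn and Fcgrt, and 90.9% a lower ratio than Dab2. The part of these cell types in the ratios was not tested. In whole tissue, fewer cells of a type and less RNA per cell cannot be told apart.

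Markers of some other cells that are known to express some of the 5 genes gave smaller shifts. The 13 detected of 14 macrophage markers, led by Lyz2, C1qb and Tyrobp, had a median ratio of -0.02 and summed to 351 and 328 TPM. The 12 blood endothelium markers, led by Egfl7, Plvap and Eng, had a median of 0.03 and summed to 402 and 401 TPM. The 9 matched mesothelium markers, led by Aldh1a2, Upk3b and Podxl, had a median of 0.04 and summed to 210 and 213 TPM. Their part in the levels of Dab2 and Fcgrt was not tested.

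Kidney markers were low. Of 12 genes 11 were below 1 TPM in both libraries, among them the proximal tubule transporter genes Slc34a1 and Slc5a2 at 0.09 TPM or less, and Umod was listed at 0 in both. The exception was Nphs1, a gene of kidney podocytes, at 2.99 and 0.93 TPM. Next highest were Pax8 at 0.91 and 0.61 TPM and Six2 at 0.29 and 0.35 TPM. Kidney markers summed to 5.01 and 2.59 TPM. Markers of yolk sac and visceral endoderm were all detected (11 of 11, beside 62.7% of protein-coding genes). They were led by Apoc2, Afp and Slc39a5, with a median ratio of -0.29 and a sum of 727 and 556 TPM. Several of them are also genes of liver or gut epithelium, and Rhox5, which is less widely expressed, was at 2.41 and 2.36 TPM. Liver markers, led by Afp, Ttr and Alb, had a median ratio of -0.38 and summed to 470 and 353 TPM. The part of both lists in the ratios of the uptake genes was not tested. Exocrine pancreas markers summed to 6489 and 2360 TPM, with a median ratio of -1.44. Of 9 detected pancreas genes 7 were 2-fold or more lower in replicate 2, beside 0.507% of all detected genes. The part of this list in the ratios of the uptake genes was not tested either.

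**Figure D5:**
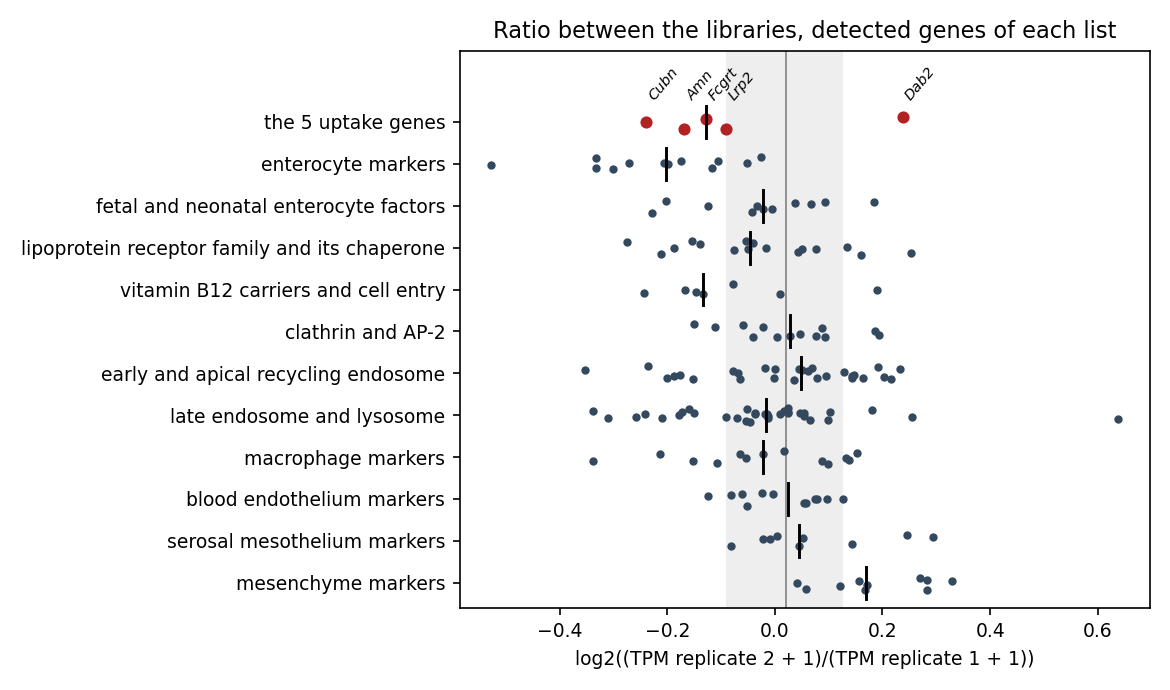
Log2 ratio of replicate 2 to replicate 1, with 1 added to each TPM, for the 5 uptake genes (top) and each detected gene of 11 lists (points) with the list median (black bars), the median of all 14986 detected genes (grey line) and their middle 50% (shaded). Cubn, Amn and Fcgrt lie left of the shaded range, as do the medians of the enterocyte markers and the vitamin B12 genes. Lrp2 lies at its edge, and Dab2 lies right of it, as does the median of the mesenchyme markers. Yolk sac, liver and exocrine pancreas markers are not drawn, and their medians were -0.29, -0.38 and -1.44. Also not drawn are the other uptake receptors (median -0.048), the Fc receptors (0.032), the adaptors (-0.020) and the scission and motor genes (0.051).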

How the data were processed

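Long total RNA was sequenced from 2 pools of intestine, per the labels' protocols. Per the file headers, the authors deposited expected counts, TPM and FPKM per gene and transcript, the percent of a gene's TPM on each transcript, and bounds of a TPM interval, used here as a score of unstated level. Per the deposited readme, genes are those of GENCODE M4 on mm10. For the quantifier, strand setting and ribosomal RNA removal, details were not given in the sources used here. Reads of a gene and an antisense partner therefore may not be told apart (Gm13270 overlaps Cubn at 0.50 and 0.38 TPM).

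Names, exons and positions came from GENCODE M21 on the same assembly, with a symbol for 98.0% of 43346 gene entries. Each Cubn, Lrp2 and Dab2 transcript has its deposited length in M21, and those of Amn and Fcgrt do not. Entries named by a number alone (0.000163% and 0.000150% of counts) and spike-ins (2.16% and 1.76%) were left out. Of 31-base words, at most 2.42% (Dab2) occur in other genes.

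Members and lists (286 entries, 281 different genes, 278 matched) were chosen with earlier results of these data known. Mesdc2 and Cblif are other names of Mesd and Gif, and Muc16 was not analysed here. Named from each list were its 3 highest genes, those 2-fold apart, up to 3 below 1 TPM and set partners. The exon, start site, length and motif comparisons and the genes Fcgr1, Fcgr2b, Fcgr4, Pigr, Rhox5, Slc34a1, Slc5a2, Umod and Lrp1 were chosen after values were seen. Some genes that the rule names are not reported here. With 2 libraries a pattern over samples is a single ratio, so no genes were named as alike. Scaling factors came from edgeR 4.0.16 (TMM) and DESeq2 1.42.0 on expected counts rounded to whole numbers, tested on simulated data. The common coefficient of variation between libraries was 9.70% (edgeR, 17590 genes). Python 3.11.15 and R 4.3.3 were used. Alternatives covered the unit, scaling, pseudocount, detection limit, transcript set and each library left out.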

Additional observations from a re-analysis of the deposited data

How the results depend on the processing

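No paired analysis was possible because there is 1 group. The order of the 5 genes was the same under all 9 alternatives tried for it, each library alone included. Mean values differed from the main TPM by more than the SD of the libraries as follows. FPKM and counts per kilobase are units other than TPM and gave lower values for all 5 genes, which is a difference of scale. In FPKM the means were 88.7 for Fcgrt, 74.9 for Amn, 27.2 for Dab2, 4.68 for Cubn and 1.27 for Lrp2. As counts per kilobase scaled to the library's gene counts they were 90.5, 76.4, 27.8, 4.77 and 1.30. Rescaled without spike-ins, mitochondrial, ribosomal and globin RNA, Fcgrt was at 142, Amn at 120.3 and Lrp2 at 2.04 TPM. Posterior mean TPM gave 2.00 for Lrp2. Coding transcripts alone gave 32.2 for Dab2 and 1.52 for Lrp2, and the leading transcript alone, an alternative chosen after seeing the data, 9.59 and 1.02.

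The log2 ratio between libraries under ERCC spike-in scaling was -0.00471 for Cubn, 0.10 for Amn, 0.087 for Lrp2, 0.50 for Dab2 and 0.14 for Fcgrt, which reversed Amn, Lrp2 and Fcgrt. For Lrp2 it also reversed with coding transcripts (0.063) and the leading transcript (0.057), and for Dab2 the leading transcript gave 0.089, both chosen after seeing the data. TMM, DESeq2 size factors, pseudocounts of 0.1 and 0, posterior mean TPM and FPKM turned none of the 5.

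Lrpap1 over Lrp2 was 44.0 with posterior means, 39.3 with coding transcripts and 34.3 with leading ones. Cubn over Lrp2, 3.67 in the main measure, became 3.35, 4.40 and 6.58. Dab2 over Numb, 1.35, became 1.86 with coding transcripts and fell below equality at 0.882 with leading ones. By counts the leading share was 99.7% for Cubn-201, 88.0% for Lrp2-201 and 43.0% for Dab2-202, and the posterior mean share of Cubn-201 was 97.3%. For Dab2, shares by counts were added after seeing the data and averaged 7.13% for the upstream start, 70.8% for the 654-base exon and 76.1% for the 63-base exon. At a limit of 5 TPM, 3 of 8 genes in the list of Fc receptors and their partner were detected (B2m, Fcer1g and Fcgr3). At the main limit of 1 TPM the count was 6. At 0.5 TPM 2 kidney genes were detected, and with 1 library left out 0 to 1 kidney genes. Genes 2-fold apart numbered 104, and 368 without a detection limit, 56 at a limit of 5 TPM and 171 with a pseudocount of 0.

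Lrp2 has the fewest counts of the 5, and its transcripts other than Lrp2-201 and Lrp2-203 rest on fewer than 5 counts each, so their shares are not reliable at this depth.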
